A study of Mus musculus with 9 samples.

Results

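The interferon-inducible p200 family is a cluster of related genes on mouse chromosome 1, in the region that carries the Nba2 lupus susceptibility locus. The members described here were given by name. The 10 names Ifi202b, Ifi203, Ifi204, Ifi206, Ifi209, Ifi211, Ifi213, Mndal, Aim2 and Pyhin1 came down to 9 distinct genes, because RefSeq lists Pyhin1 as another name of Ifi209, out of 21965 gene identifiers counted. RNA sequencing was made from spleens of 16-week-old mice in 3 groups of 3 libraries, which were BWF1 females (the F1 cross of NZB and NZW), BWF1 males and BALB/c females. The series names BWF1 mice as prone to lupus and BALB/c mice as not. The strain and sex differ as the labels give them, with no transgene or treatment named, and BALB/c males were not analysed here. One label source speaks of whole splenocytes and another of sorted CD11b+F4/80+ macrophages, and each number is taken here as a separate mouse. Where it is not, the p-values measure only the spread between these libraries.

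Most proteins of the family pair a pyrin domain, which binds other pyrin domains, with a HIN domain, which binds DNA. Aim2 senses DNA in the cytosol and joins the adaptor Pycard to activate caspase-1, p204 (Ifi204) senses DNA upstream of the adaptor STING, and p202 (Ifi202b) has no pyrin domain and restrains Aim2. Interferon raises transcription of these genes through elements bound by interferon-regulated factors, and Ifi202b was put forward as a candidate gene of Nba2 because its expression is high in mice with the NZB allele. BWF1 mice carry an NZB and an NZW copy of the cluster, while the reads of all strains were aligned to the mm10 reference, which is of C57BL/6J. How well reads of each haplotype aligned was not tested.

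The promoters show how alike the members are. RefSeq promoter windows (GRCm38.p6, from 250 bases before to 50 after the start) were searched on both strands for GAAANNGAAA, a pattern of interferon-stimulated response elements. Of 32851 windows, 1131 (3.44%) held it, and of 27025 genes 1079 (3.99%) did. Among the members it stood on the gene's own strand in Ifi206, Ifi213, Mndal, Ifi211 and Ifi203. Ifi209 lacked it by a single base, and the windows of Aim2 and Ifi202b did not hold it. The following stretches of 40 bases, written 5′ to 3′ on the gene's strand, are shown because they set members beside close copies in the family, with the element, or the nearest stretch to it, in capitals.

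Ifi206 (chr1:173491334-173491373, minus strand): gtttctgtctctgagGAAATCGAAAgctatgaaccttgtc

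Ifi213 (chr1:173599321-173599360, minus strand): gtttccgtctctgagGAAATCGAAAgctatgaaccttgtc

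Ifi208 (chr1:173673592-173673631, plus strand): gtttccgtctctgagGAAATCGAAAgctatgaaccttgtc

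Ifi209 (chr1:173630765-173630804, plus strand): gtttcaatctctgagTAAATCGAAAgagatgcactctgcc

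Ifi214 (chr1:173536012-173536051, minus strand): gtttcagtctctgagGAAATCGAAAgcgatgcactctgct

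Mndal (chr1:173880199-173880238, minus strand): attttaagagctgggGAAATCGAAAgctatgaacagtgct

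Ifi203 (chr1:173942503-173942542, minus strand): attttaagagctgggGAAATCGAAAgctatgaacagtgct

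Ifi211 (chr1:173913059-173913098, minus strand): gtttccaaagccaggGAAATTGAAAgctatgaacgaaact

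Ifi205 (chr1:174031865-174031904, minus strand): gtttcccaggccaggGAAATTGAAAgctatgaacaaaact

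Counted from 1 at the 5′ end of GAAATCGAAA, Ifi209 had G1T, and Ifi211 and Ifi205 had C6T. The element began 40 bases before the start in Ifi206, 73 in Ifi213, 36 in Mndal, 35 in Ifi203 and 37 in Ifi211. Mndal and Ifi203 each had 2 windows, and the other window of each lacked the element on the gene's strand. The RefSeq start of Mndal used here lies inside the counted gene, which reaches to 173942491 on the minus strand. Over the bases that could be aligned, the whole window of Ifi208 was 98.9% identical to those of Ifi206 (282 positions) and Ifi213 (285 positions). The windows of Ifi206 and Ifi213 were 98.5% identical (267 positions), those of Ifi209 and Ifi214 95.7% (300 positions), those of Mndal and Ifi203 94.3% (299 positions) and those of Ifi211 and Ifi205 93.1% (203 positions). Ifi208, Ifi214 and Ifi205 belong to the family but not to the named members. Ifi203 and Ifi209 had the highest counts of the members, and the 250 bases before their starts are given in full, with the same capitals.

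Ifi203 (chr1:173942493-173942742, minus strand): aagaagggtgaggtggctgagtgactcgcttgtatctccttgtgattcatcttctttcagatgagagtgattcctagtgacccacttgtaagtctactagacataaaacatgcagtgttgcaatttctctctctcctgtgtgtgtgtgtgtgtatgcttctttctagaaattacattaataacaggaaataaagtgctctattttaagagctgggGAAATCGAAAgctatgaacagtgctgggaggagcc

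Ifi209 (chr1:173630609-173630858, plus strand): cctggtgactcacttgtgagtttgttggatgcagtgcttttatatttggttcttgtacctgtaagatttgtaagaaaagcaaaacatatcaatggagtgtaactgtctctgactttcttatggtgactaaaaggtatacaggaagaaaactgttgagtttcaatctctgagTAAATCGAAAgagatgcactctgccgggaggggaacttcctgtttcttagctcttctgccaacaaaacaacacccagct

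The libraries were shallow. Between 458608 and 4305003 reads per library were counted in genes, and Lars2 alone took 42.3% to 76.6% of them, so the members together had 82 to 938 counts in a library. A single read was therefore a visible share of a member's level, and 3 counts over a whole group stood for 1.92 CPM in BWF1 females and 0.477 CPM in BWF1 males, against 0.765 CPM in BALB/c females. The male value rests mostly on the deepest library, BWF1 male 3. There 3 counts stood for 0.625 CPM, against 5.88 CPM in BWF1 male 1 and 3.08 CPM in BWF1 male 2. CPM are counts set against a fixed library total and scaled here by TMM, a factor that lines up the bulk of genes between libraries. Markers of the labelled macrophage sort were low: Itgam, which encodes CD11b, averaged 0.538 CPM in BWF1 females and 4.87 in BWF1 males, against 5.52 in BALB/c females, and Adgre1, which encodes F4/80, 14.8, 15.3 and 7.27 CPM. The Itgam level in BWF1 females rested on 1 read, under the floor of 1.92 CPM. The summed level of 9 B cell markers averaged 2190, 2520 and 3090 CPM in the same order. That of 13 macrophage markers, Itgam and Adgre1 among them, averaged 180, 451 and 230 CPM. In bulk RNA fewer cells of a type and less RNA per cell cannot be told apart.

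Against BALB/c females, Ifi203 had lower and Ifi209 higher fitted levels in both BWF1 groups, the summed level of the family overlapped between all groups, and no member passed the test. The summed level of the 9 genes was 203, 200 and 172 CPM in BWF1 females and 161, 224 and 195 CPM in BWF1 males, against 237, 189 and 168 CPM in BALB/c females. The means were 192 ± 16.8, 193 ± 31.4 and 198 ± 35.6 CPM (SD, n = 3 each), so the 3 groups overlapped. Per kilobase of annotated exon, the order of the members' mean levels over all 9 libraries was Ifi209 (12.6 CPM per kb), Ifi203 (10.5), Mndal (10.3), Aim2 (5.93), Ifi206 (2.66), Ifi202b (1.71), Ifi204 (1.21), Ifi211 (0.921) and Ifi213 (0.53). The first places depended on the group: Ifi209 led in BWF1 females (14.7 ± 4.33 CPM per kb) and BWF1 males (15.5 ± 1.11), and Ifi203 led in BALB/c females (13.7 ± 2.08). Neighbours in the order often lay closer than their SD. In BWF1 females Ifi209, Mndal (10.7 ± 2.48 CPM per kb) and Ifi203 (8.3 ± 1.07) each lay within 1 SD of the next, and so did Ifi203, Mndal (11.7 ± 1.21) and Ifi209 (7.53 ± 5.25) in BALB/c females. In BWF1 males Ifi209 stood apart from Ifi203 (9.64 ± 2.83 CPM per kb), which lay within 1 SD of Mndal (8.62 ± 2.83).

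**Figure D1:**
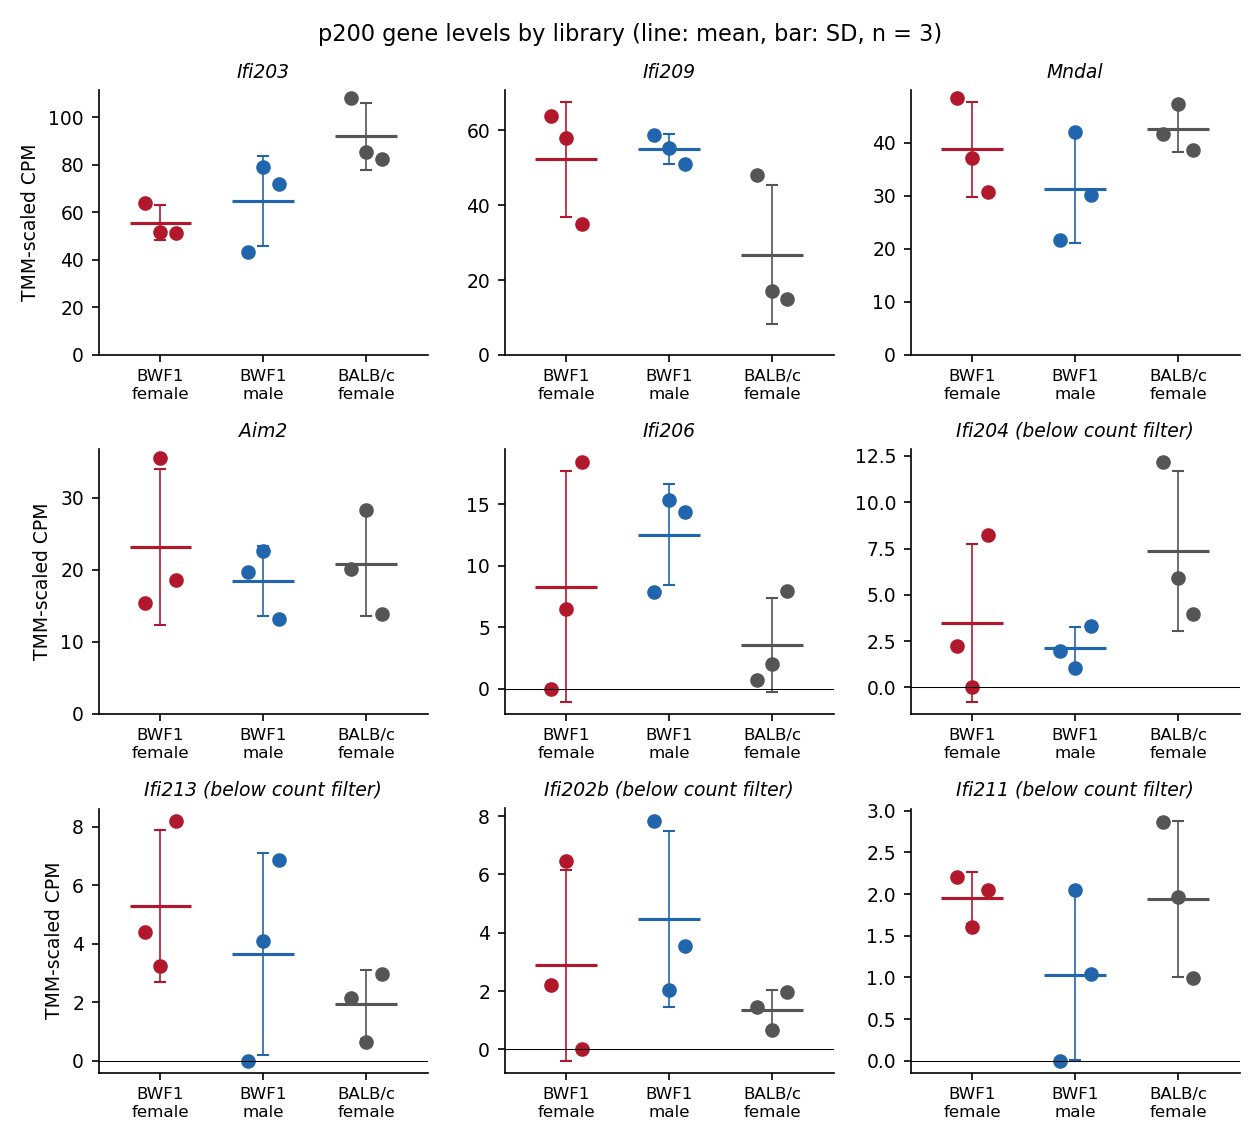
Levels of the 9 p200 genes in TMM-scaled CPM (vertical axis, a separate scale for each gene) by group, with a point per library, a line at the mean and a bar of 1 SD (n = 3). The Ifi203 points of both BWF1 groups lie under the lowest BALB/c point of 82.3 CPM, and the Ifi209 points of BWF1 males lie above the highest BALB/c point of 48.2 CPM; 4 genes are under the count filter and were not tested.

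**Figure D2:**
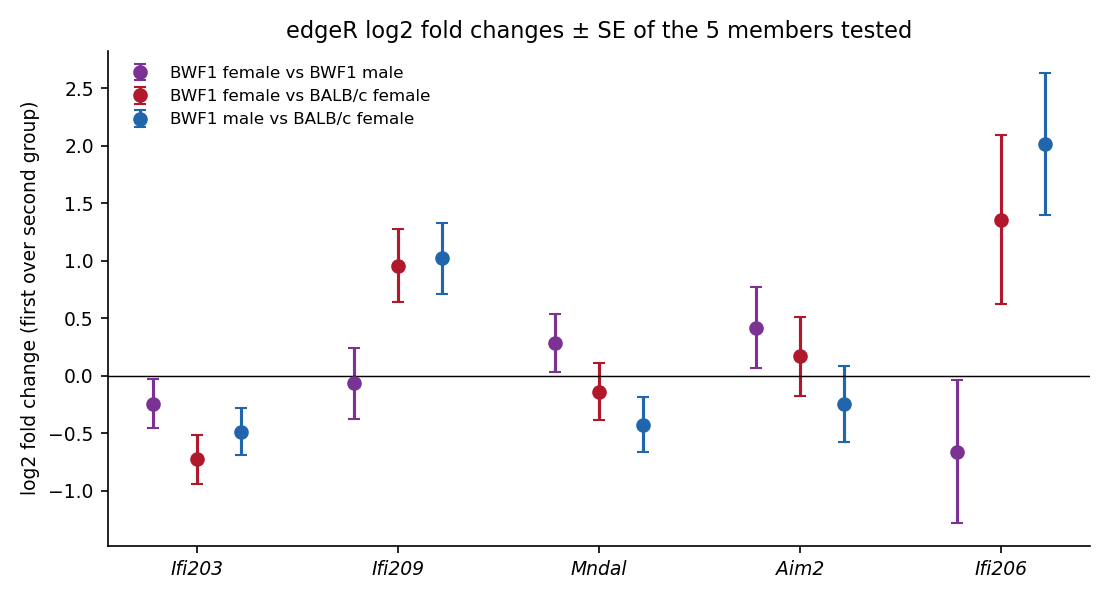
edgeR log2 fold changes (vertical axis) of the 5 members that passed the count filter, with bars of 1 SE, for BWF1 females over BWF1 males, BWF1 females over BALB/c females and BWF1 males over BALB/c females. Ifi203 lies below 0 and Ifi209 above 0 in both comparisons with BALB/c females. Between the BWF1 sexes Ifi209 lies at −0.06 and Ifi203 at −0.24.

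The count filter was passed by 5 members, Ifi203, Ifi209, Mndal, Aim2 and Ifi206, and not by Ifi204, Ifi202b, Ifi213 and Ifi211. Between BWF1 females and BWF1 males edgeR's quasi-likelihood test called 0 of the 5 at an adjusted p under 0.05, where it called 2.19% of all 7719 tested genes, and 0 had an unadjusted p under 0.05 (16.4% of all genes). For BWF1 females against BALB/c females it called 0 of 5 (3.82% of all genes), with 2 at an unadjusted p under 0.05 (16.9% of all genes). For BWF1 males against BALB/c females it called 0 of 5 (3.52% of all genes), with 3 at an unadjusted p under 0.05 (16.3% of all genes). DESeq2, which applies its own filter, gave an adjusted p to 3, 8 and 8 of the 9 members in the 3 comparisons and called 0. Both comparisons with BALB/c females share those libraries, so that likeness between them is not independent.

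Groups that did not overlap were common across all genes, at 18.7% of tested genes between BWF1 females and males, 21.2% between BWF1 females and BALB/c females and 23.5% between BWF1 males and BALB/c females. Among the 5 tested members this held for none, for Ifi203, and for Ifi203 and Ifi209, in the same order. Of the members under the count filter, it held for Ifi213 between BWF1 females and BALB/c females. It also held for Ifi204 and Ifi202b between BWF1 males and BALB/c females, and the shares above do not cover such low genes.

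Ifi203, a HIN protein of the nucleus, was the member nearest to a call. It is ENSMUSG00000039997, at mm10 chromosome 1, 173920407 to 173942672, minus strand. It stood at 64, 51.6 and 51.3 CPM in BWF1 females and 43.2, 78.9 and 71.8 CPM in BWF1 males, against 108, 85.4 and 82.3 CPM in BALB/c females. Every BWF1 library was below every BALB/c library. The raw counts were 29, 32 and 25 in BWF1 females and 22, 77 and 345 in BWF1 males, against 150, 130 and 83 in BALB/c females. The log2 fold change was −0.73 in BWF1 females over BALB/c females (SE 0.21, 95% interval −1.16 to −0.29; edgeR adjusted p = 0.0524). It was −0.48 in BWF1 males over BALB/c females (SE 0.20, interval −0.90 to −0.07; edgeR adjusted p = 0.213). Between BWF1 females and males it was −0.24 (interval −0.68 to 0.20; edgeR adjusted p = 0.619), and those groups overlapped. The edgeR call in females crossed the threshold in 6 of 20 alternatives, such as the fit without BWF1 male 1 (adjusted p = 0.018), and the adjusted p was 0.218 without BALB/c female 1.

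Ifi209, a pyrin and HIN protein, was higher in most BWF1 libraries. It is ENSMUSG00000043263, at chromosome 1, 173630917 to 173647928, plus strand. Its level was 64, 58.1 and 34.9 CPM in BWF1 females and 58.8, 55.4 and 51 CPM in BWF1 males, against 48.2, 17.1 and 14.9 CPM in BALB/c females. The BWF1 males did not overlap with the BALB/c females, while BWF1 female 3 lay under BALB/c female 1. The log2 fold change over BALB/c females was 0.96 in BWF1 females (SE 0.32, interval 0.30 to 1.61; edgeR adjusted p = 0.0961) and 1.02 in BWF1 males (SE 0.31, interval 0.39 to 1.65; edgeR adjusted p = 0.0621). The value depended on the BALB/c libraries. Without BALB/c female 1 the log2 fold changes were 1.70 in BWF1 females (edgeR adjusted p = 0.000772) and 1.76 in BWF1 males (edgeR adjusted p = 0.000285). Without BALB/c female 2 they were 0.70 and 0.77 (edgeR adjusted p = 0.347 and 0.303), and without BALB/c female 3 they were 0.69 and 0.76 (edgeR adjusted p = 0.345 and 0.259), in the same order. Between BWF1 females and males the log2 fold change was −0.06 (interval −0.70 to 0.57; edgeR adjusted p = 0.95).

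Mndal, which restrains cell growth, was not called in any comparison. It is ENSMUSG00000090272, at chromosome 1, 173849126 to 173942491, minus strand, and its exons overlap those of Ifi203 on the same strand. It stood at 48.5, 37.1 and 30.8 CPM in BWF1 females and 21.6, 42 and 30.2 CPM in BWF1 males, against 41.7, 47.3 and 38.7 CPM in BALB/c females. All 3 groups overlapped. The log2 fold change was −0.14 in BWF1 females over BALB/c females (interval −0.65 to 0.37; edgeR adjusted p = 0.83), −0.42 in BWF1 males over BALB/c females (interval −0.92 to 0.07; edgeR adjusted p = 0.4) and 0.29 in BWF1 females over BWF1 males (interval −0.23 to 0.80; edgeR adjusted p = 0.621).

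Aim2, the DNA sensor of the inflammasome, was not called either. It is ENSMUSG00000037860, at chromosome 1, 173350879 to 173466040, plus strand. It had 15.4, 35.5 and 18.5 CPM in BWF1 females and 19.6, 22.6 and 13.1 CPM in BWF1 males, against 20.1, 28.3 and 13.9 CPM in BALB/c females. The highest and the lowest library of the 9 were BWF1 female 2 and BWF1 male 3. The log2 fold change was 0.17 in BWF1 females over BALB/c females (interval −0.53 to 0.87; edgeR adjusted p = 0.856), −0.25 in BWF1 males over BALB/c females (interval −0.92 to 0.43; edgeR adjusted p = 0.786) and 0.42 in BWF1 females over BWF1 males (interval −0.31 to 1.14; edgeR adjusted p = 0.606). Each interval gives the changes that the counts do not exclude, and it is not a limit of detection.

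Ifi206 was low and uneven. It is ENSMUSG00000037849, at chromosome 1, 173468485 to 173491041, minus strand. Its raw counts were 0, 4 and 9 in BWF1 females and 4, 15 and 69 in BWF1 males, against 1, 3 and 8 in BALB/c females. These came to 0, 6.45 and 18.5 CPM, to 7.85, 15.4 and 14.4 CPM and to 0.719, 1.97 and 7.93 CPM in the same order, so that the lowest male library lay just under the highest BALB/c library. The log2 fold change was 2.02 in BWF1 males over BALB/c females (SE 0.61, interval 0.75 to 3.28; edgeR adjusted p = 0.0673). It was 3.19 without BALB/c female 3 (edgeR adjusted p = 0.0173), 1.51 without BALB/c female 1 (0.284) and 1.89 without BWF1 male 2 (0.164). It was 1.36 in BWF1 females over BALB/c females (interval −0.16 to 2.87; edgeR adjusted p = 0.361) and −0.66 in BWF1 females over BWF1 males (interval −1.94 to 0.62; edgeR adjusted p = 0.646). With a library left out, the first of these ran from 0.18 without BWF1 female 3 to 2.53 without BALB/c female 3. The second ran from −1.84 without BWF1 female 3 to −0.14 without BWF1 female 1, and neither was called in these fits.

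Ifi202b, the restrainer of Aim2 and candidate gene of Nba2, was barely detected. It is ENSMUSG00000026535, at chromosome 1, 173962568 to 173982744, minus strand. It had 1, 4 and 0 counts in BWF1 females and 4, 2 and 17 in BWF1 males, against 2, 1 and 2 in BALB/c females. In CPM this was 2.21, 6.45 and 0 in BWF1 females and 7.85, 2.05 and 3.54 in BWF1 males, against 1.44, 0.657 and 1.98 in BALB/c females. Every BWF1 male library lay above every BALB/c library, and BWF1 females overlapped with both. The closest pair, at 2.05 and 1.98 CPM, was 2 counts in each, under the 3-count floors of 3.08 and 2.97 CPM in those libraries. Their order thus reflects library size alone. In that comparison 23.5% of tested genes did not overlap. The gene was under the filter. With no filter the log2 fold change was 1.51 in BWF1 males over BALB/c females (SE 0.75; edgeR adjusted p = 0.36) and 1.21 in BWF1 females over BALB/c females (SE 0.96; edgeR adjusted p = 0.644). Its annotated transcripts share no stretch of 50 bases with another annotated gene.

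Ifi204, the DNA sensor upstream of STING, was low in all groups. It is ENSMUSG00000073489, at chromosome 1, 173747293 to 173766943, minus strand, and had 1, 0 and 4 counts in BWF1 females and 1, 1 and 16 in BWF1 males, against 17, 9 and 4 in BALB/c females. The levels were 2.21, 0 and 8.21 CPM in BWF1 females and 1.96, 1.03 and 3.33 CPM in BWF1 males, against 12.2, 5.91 and 3.96 CPM in BALB/c females. The males lay below the BALB/c females, where 23.5% of tested genes did not overlap, and BWF1 females overlapped with both. With no filter the log2 fold change was −1.46 in BWF1 males over BALB/c females (SE 0.53; edgeR adjusted p = 0.115) and −1.23 in BWF1 females over BALB/c females (SE 0.68; edgeR adjusted p = 0.461).

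Ifi213 and Ifi211 were at the edge of detection. Ifi213 (ENSMUSG00000073491, chromosome 1, 173566283 to 173599274, minus strand) had 2, 2 and 4 counts in BWF1 females and 0, 4 and 33 in BWF1 males, against 3, 1 and 3 in BALB/c females. Its mean levels were 5.28 ± 2.61, 3.66 ± 3.46 and 1.93 ± 1.17 CPM (SD, n = 3 each), and the BWF1 females lay above the BALB/c females. In that comparison 21.2% of tested genes did not overlap, and the closest pair here was 2 counts against 3. Ifi211 (ENSMUSG00000026536, chromosome 1, 173896345 to 173913046, minus strand) had 1, 1 and 1 counts, 0, 2 and 5 counts and 4, 3 and 1 counts in the same order. With no filter neither was called in any of the 3 comparisons.

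The make-up of the family's counts does not depend on the scaling between libraries. Ifi203 took 31.5%, 25.8% and 29.8% of the members' counts in BWF1 females and 26.8%, 35.3% and 36.8% in BWF1 males, against 45.5%, 45.1% and 49.1% in BALB/c females. Ifi209 took 31.5%, 29.0% and 20.2% in BWF1 females and 36.6%, 24.8% and 26.1% in BWF1 males, against 20.3%, 9.03% and 8.88% in BALB/c females. The share of Ifi203 was 17.5 points lower in BWF1 females and 13.6 points lower in BWF1 males than in BALB/c females, and in both comparisons the groups did not overlap. A 2-sided exact permutation test gave p = 0.1 for each, the smallest that 3 against 3 can give, and 0.375 after adjustment over the 15 shares compared, so the design could not pass the threshold. For Ifi209 the exact permutation p was 0.2 in BWF1 females (14.2 points higher) and 0.1 in BWF1 males (16.4 points higher), with adjusted values of 0.5 and 0.375. The shares in a library are tied, so that a higher share of Ifi209 lowers that of Ifi203. They also reuse the counts tested above.

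**Figure D3:**
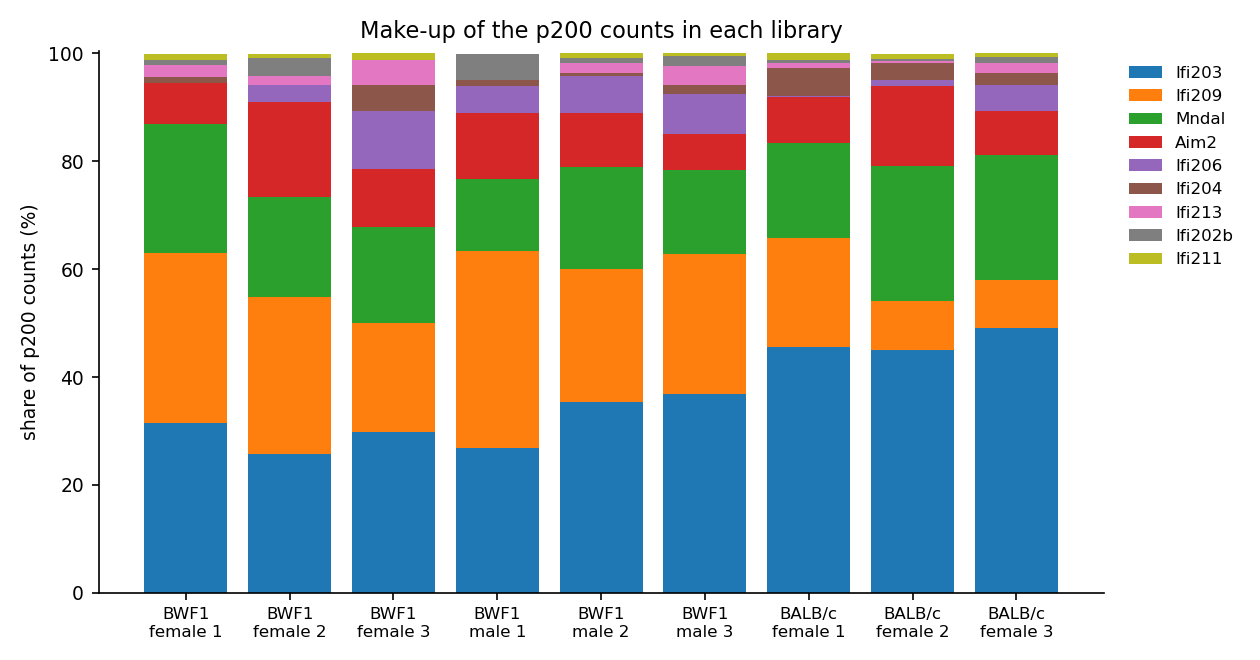
Share of the summed raw counts of the 9 p200 genes (vertical axis, percent) taken by each gene in each library (horizontal axis). Ifi203, at the base of each bar, takes 25.8% to 36.8% in the 6 BWF1 libraries and 45.1% to 49.1% in the 3 BALB/c libraries.

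Several members share sequence with close copies. Between 55.9% and 61.5% of all alignments in a library were set aside as not unique before counting, and the part of them that came from p200 genes was not measured. Of the distinct stretches of 75 bases in the annotated transcripts, Ifi211 shared 63.6% with other genes (40.6% with Ifi205), Ifi209 23.1% (all with Ifi214), Ifi206 17.6%, Ifi204 13.2%, Mndal 11.1%, Ifi213 8.07% and Ifi203 5.71%, while Aim2 and Ifi202b shared none. Reads that fall in such stretches could not be counted for one gene, and the share was highest for Ifi211 and Ifi209. The read length was not given in the sources used here.

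**Figure D4:**
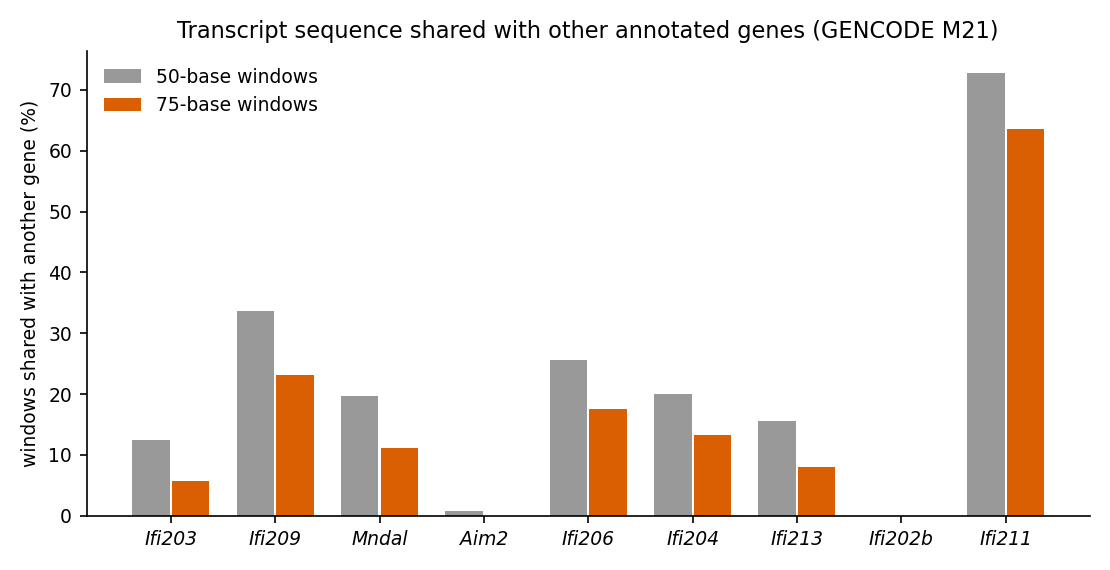
Percent of the distinct stretches of 50 and of 75 bases in each member's annotated transcripts (GENCODE M21, vertical axis) that also occur in another annotated gene. Ifi211 stands highest at 63.6% for 75 bases, and Ifi202b shares none at either length.

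Some members were summed with close copies or, for Ifi203, with the overlapping gene Mndal. These sums hold only reads that were counted for a single gene, so they do not restore reads set aside as not unique. Ifi209 with Ifi214 came to 66.3 ± 15.3 CPM in BWF1 females and 63.5 ± 6.35 in BWF1 males, against 44.0 ± 18.0 in BALB/c females (SD, n = 3 each). Ifi214 alone averaged 14 CPM in BWF1 females and 8.42 in BWF1 males, against 17.3 in BALB/c females. The overlapping pair Ifi203 and Mndal came to 94.4 ± 16.0, 95.9 ± 28.6 and 134 ± 14.4 CPM in the same order. Here BWF1 females lay below all BALB/c females, while the highest male library, at 121 CPM, was level with the lowest BALB/c library. Ifi206, Ifi208 and Ifi213 together came to 23.5 ± 15.1, 33.6 ± 12.9 and 14.5 ± 5.67 CPM, with Ifi208 itself at 9.88, 17.4 and 9.02 CPM. No copy that passed the filter was called by edgeR or DESeq2 (0 of the 2, Ifi208 and Ifi214, in each comparison). Of all genes edgeR called 2.19% in BWF1 females over males, 3.82% in BWF1 females over BALB/c females and 3.52% in BWF1 males over BALB/c females. In that order 0, 0 and 2 copies had an unadjusted edgeR p under 0.05, against 16.4%, 16.9% and 16.3% of all genes. In BWF1 males over BALB/c females the log2 fold change was 0.96 for Ifi208 and −0.95 for Ifi214.

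The summed level of Ifi204, Ifi205 and Ifi211 did not overlap between either BWF1 group and BALB/c females. The same held for 21.2% of all tested genes in BWF1 females and for 23.5% in BWF1 males. The sum was 6.62, 3.23 and 10.3 CPM in BWF1 females and 1.96, 4.1 and 5.62 CPM in BWF1 males, against 23.7, 14.5 and 12.9 CPM in BALB/c females. Every BWF1 library was below every BALB/c library. Much of this came from Ifi205, a family gene outside the named members and picked out here after its counts were seen, with 1, 1 and 0 counts in BWF1 females and 0, 1 and 6 in BWF1 males, against 12, 10 and 8 in BALB/c females. It was under the filter. With no filter it was called lower in BWF1 males than in BALB/c females (log2 fold change −2.71; edgeR adjusted p = 0.0018, where 3.34% of 15276 genes were called), a call that was lost without BWF1 male 3, which held 6 of the 7 male counts (adjusted p = 0.0645). In BWF1 females, with 2 counts in all, the no-filter edgeR adjusted p was 0.0911 (2.8% of genes called).

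The deposited libraries carry one of 2 name tags whose meaning no label gives. All 3 BALB/c libraries, BWF1 female 2 and BWF1 male 2 share a tag. Within that tag Ifi203 stood at 51.6 CPM in BWF1 female 2 and 78.9 in BWF1 male 2, against 82.3 to 108 CPM in BALB/c females. Ifi209 stood at 58.1 and 55.4 CPM, against 14.9 to 48.2 CPM in BALB/c females, and Ifi206 at 6.45 and 15.4 CPM, against 0.719 to 7.93. With the tag as a covariate the log2 fold changes over BALB/c females were −0.62 in BWF1 females and −0.39 in BWF1 males for Ifi203 (edgeR adjusted p = 0.3 and 0.563) and 1.04 and 1.11 for Ifi209 (edgeR adjusted p = 0.175 and 0.142).

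Of 11 lists of cell type markers, some had summed levels that separated the groups and others overlapped. The 9 B cell markers ran from 2080 to 2270 CPM in BWF1 females and 2160 to 2830 CPM in BWF1 males, against 3080 to 3090 CPM in BALB/c females. The 7 conventional dendritic cell markers ran from 62.9 to 80.1, 59.5 to 82.4 and 86.2 to 109 CPM in the same order. Both BWF1 groups lay below BALB/c for these 2 lists. The 5 plasmacytoid dendritic cell markers ran from 220 to 302, 286 to 359 and 181 to 198 CPM in the same order, so that both BWF1 groups lay above BALB/c. Other lists were high in BWF1 males, such as the 8 natural killer and cytotoxic cell markers, at 82.1 to 88.7 CPM in BWF1 females and 279 to 285 CPM in BWF1 males, against 113 to 151 CPM in BALB/c females. In the same order the 13 macrophage markers ran from 150 to 198, 388 to 486 and 219 to 241 CPM, the 10 T cell markers from 324 to 432, 610 to 668 and 385 to 562 CPM, and the 6 plasma cell markers from 489 to 708, 1170 to 1980 and 548 to 720 CPM. The 7 monocyte markers were low in BWF1 females (195 to 322, 367 to 541 and 476 to 494 CPM). The 9 neutrophil markers (182 to 392, 287 to 675 and 271 to 376 CPM), the 7 stromal and endothelial markers (128 to 164, 108 to 145 and 143 to 172 CPM) and the 8 red cell markers (766 to 2180, 171 to 1250 and 1240 to 3650 CPM) overlapped between all groups. None of these markers was at 0 in all libraries, and their part in the p200 levels was not tested.

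Few other genes of the locus could be tested. Within 1 Mb of the outermost members 51 genes are reported here, 18 of them at 0 in every library, and 9 passed the filter, 5 of them the members. The actin-binding gene Tagln2 averaged 79.7 CPM in BWF1 females and 121 in BWF1 males, against 81.5 in BALB/c females (edgeR adjusted p = 0.0694 for females over males and 0.0575 for males over BALB/c females). Pigm, of GPI anchor synthesis, averaged 28.9, 34.1 and 41.3 CPM, and the untested potassium channel gene Kcnj10 4.26, 11.4 and 5.08 CPM.

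**Figure D5:**
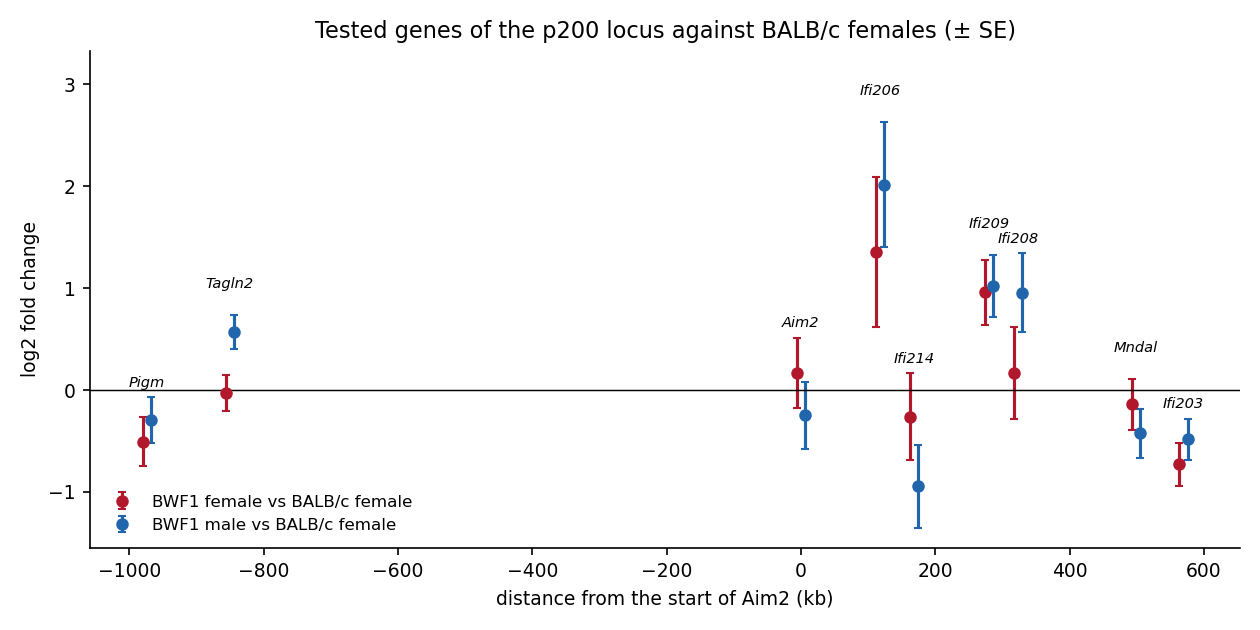
edgeR log2 fold changes (vertical axis, bars of 1 SE) over BALB/c females of 9 tested genes within 1 Mb of the members, by distance from the start of Aim2 in kb. Neighbouring p200 genes differ in direction, with Ifi209 above 0 and Ifi203 below.

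The genes with the closest profiles over the 9 libraries were found by the root mean square difference of centred log2(CPM + 1) values. For Ifi203, whose own values varied by 0.394, they were Zfp62 (0.0872), P2ry10 (0.138) and Stk26 (0.146). For Mndal (0.34) they were Cers4 (0.133), Ccdc91 (0.138) and Sh3bp5 (0.142). For Ifi209 (0.724) they were Crebl2 (0.355), Naxd (0.371) and Zfp87 (0.377), and for Aim2 (0.422) Vps37a (0.226), Yod1 (0.234) and Eloc (0.236). For Ifi206 (1.43) the best were Rtn4rl1 (0.936), Slc27a4 (0.936) and Lzic (0.945), which is a poor match.

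The partners of the family in DNA sensing were read from lists of 9 inflammasome, 16 cytosolic DNA sensing, 13 interferon signalling and 37 other interferon-stimulated genes. The DNA sensing list held 18 names, of which 16 matched a counted gene. Of the inflammasome genes 6 were tested. In BWF1 females against BALB/c females 2 fell and 4 did not pass (median log2 fold change −0.42, against −0.0024 over all genes), where 2.03% of all genes were called lower. They were the cytokine Il1b, at 17 ± 9.17 CPM in BWF1 females and 89.2 ± 6.6 CPM in BALB/c females (−2.35, SE 0.34; edgeR adjusted p = 9.38e-05), and the bacterial sensor Nlrc4 (−1.62, SE 0.44; edgeR adjusted p = 0.0317). The Nlrc4 call was lost without BWF1 female 2 (adjusted p = 0.153), BWF1 female 3 (0.0617) or any of BALB/c females 1 (0.0522), 2 (0.0772) and 3 (0.126). Against BWF1 males, at 50.9 ± 32.4 CPM, Il1b was the gene that fell in BWF1 females (1 of 6, where 1.23% of all genes were called lower; −1.47; edgeR adjusted p = 0.0219), a call lost without BWF1 female 1 (adjusted p = 0.0802), BWF1 female 3 (0.0811) or BWF1 male 1 (0.0994; log2 fold change −0.88). In BWF1 males against BALB/c females 0 of 6 were called, with the lowest adjusted p at 0.106 (Il1b), 2 at an unadjusted p under 0.05 (16.3% of all genes) and 0 called by DESeq2. Il1b is expressed by monocytes, whose summed markers are given above, but the part of any cell type in its level was not tested.

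Of the DNA sensing genes 13 were tested. In BWF1 females against BALB/c females 2 fell and 11 did not pass (median −0.19), where 2.03% of all genes were called lower. Dnase1l3, a secreted nuclease that degrades chromatin, stood at 30.4 ± 2.99 CPM in BWF1 females and 64 ± 11.7 CPM in BALB/c females (−1.07, SE 0.22; edgeR adjusted p = 0.00381), and this call held in all 20 alternatives. The transcription factor Irf7 stood at 12.7 ± 4.8 CPM in BWF1 females and 28.8 ± 4.98 CPM in BALB/c females (−1.21; edgeR adjusted p = 0.0463), and its call was lost without any of BWF1 female 2 (0.195), BWF1 female 3 (0.0866), BWF1 male 3 (0.0574) and BALB/c females 1 (0.0564), 2 (0.156) and 3 (0.14). In BWF1 males against BALB/c females 2 fell and 11 did not pass (median −0.19), where 1.85% of all genes were called lower. These were the lysosomal nuclease gene Dnase2a (−1.18; edgeR adjusted p = 0.0116) and Dnase1l3 (−0.78; edgeR adjusted p = 0.0287). Both calls were lost without BWF1 male 2 (adjusted p = 0.0669 and 0.113) or BALB/c female 2 (0.0646 and 0.122), and that of Dnase1l3 also without BWF1 male 3 (0.0853) or BALB/c female 1 (0.167). Of the 13, edgeR and DESeq2 each called 0 in BWF1 females against BWF1 males, with 0 at an unadjusted p under 0.05 in either, and the lowest p was that of Tmem173, which encodes STING (−0.39; edgeR adjusted p = 0.367).

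Of the interferon receptor and signalling genes 11 were tested, and edgeR and DESeq2 each called 0 in every comparison. In BWF1 females over males, BWF1 females over BALB/c females and BWF1 males over BALB/c females, 2, 0 and 1 had an unadjusted edgeR p under 0.05, where 16.4%, 16.9% and 16.3% of all genes had one. The lowest p-values were those of the interferon-gamma receptor gene Ifngr1 in BWF1 females over BWF1 males (−0.74; edgeR adjusted p = 0.0757) and in BWF1 males over BALB/c females (0.45; edgeR adjusted p = 0.267), and that of the kinase gene Jak1 in BWF1 females over BALB/c females (−0.28; edgeR adjusted p = 0.331). Of the other interferon-stimulated genes, Isg15, Ifit1, Ifit2, Ifit3, Mx1 and Oas1a were among those under the count filter, and 21 were tested. In BWF1 females against BALB/c females 1 fell and 20 did not pass (median −0.12), where 2.03% of all genes were called lower. It was Samd9l, a restrainer of cell growth, at 48.8 ± 6.07 CPM in BWF1 females and 105 ± 33.5 CPM in BALB/c females (−1.10, SE 0.23; edgeR adjusted p = 0.00391), lost without BALB/c female 1 (adjusted p = 0.0587). In BWF1 females against BWF1 males and in BWF1 males against BALB/c females edgeR and DESeq2 each called 0 of 21, with 1 and 3 at an unadjusted edgeR p under 0.05 (16.4% and 16.3% of all genes), and the antiviral gene Rsad2 had the lowest p (1.97 in BWF1 females over BWF1 males, edgeR adjusted p = 0.0511; −1.71 in BWF1 males over BALB/c females, edgeR adjusted p = 0.0663). Rsad2 rested on single libraries: without BWF1 male 1 it passed in both (adjusted p = 4.23e-05 and 1.67e-05), while without BWF1 male 3 it was 1.32 and −1.06 (adjusted p = 0.291 and 0.378), and without BALB/c female 2 the second was −1.03 (adjusted p = 0.443).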

How the data were processed

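The authors deposited raw read counts per gene, 1 file for each of 9 libraries, with the summary lines of HTSeq; the submitters' processing notes list STAR 2.6, FastQC 0.10.1 and the build mm10, and the annotation, strand and counting settings are not given in the sources used here. Summary lines stayed out of library sizes (gene counts were 1.29% to 2.82% of alignments). Identifiers were named with GENCODE M21. Counts were fitted with edgeR 4.0.16 (R 4.3.3): filterByExpr with min.count 10, TMM, 1 quasi-likelihood fit over the 3 groups, Benjamini-Hochberg over 7719 genes, called at an adjusted p under 0.05; intervals use the test's own degrees of freedom. The fit was run on simulated data with changes planted only in better expressed genes, which does not cover low members such as Ifi206. DESeq2 1.42.0 was an alternative. Members were named throughout, list genes when called (else the lowest p), locus genes from 5 CPM, and the 3 nearest profiles per member. The members and lists were chosen with earlier results of these data known. Sequences are from RefSeq (GRCm38.p6); Ifi204 is named only. Floors of 3 counts cover counting error only. Some marker and locus genes are not reported here, and the marker sums and the locus counts are without them.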

Additional observations from a re-analysis of the deposited data

How the results depend on the processing

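The count of 0 members called held in all alternatives between BWF1 females and males. Between BWF1 females and BALB/c females 2 members were called with no filter on low counts, and 1 with Lars2 left out, robust dispersion, only the 2 groups compared, the replicate block or edgeR's earlier quasi-likelihood pipeline (chosen after seeing the data); leaving out a library gave 0 to 1. Between BWF1 males and BALB/c females 2 were called with no filter, Lars2 left out or the earlier pipeline, 1 with the replicate block, and 0 to 2 with a library left out. The members called were Ifi203 and Ifi209 in the first comparison and Ifi206 and Ifi209 in the second. With the replicate block Ifi209 was called in both (adjusted p = 0.0296 and 0.00962, edgeR). Same-numbered libraries correlated between −0.0895 and 0.0576 in their deviations from the group means, and other pairs between groups between −0.115 and 0.137. Such correlations cannot tell whether same-numbered libraries share more than a number.

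Counts of all genes called, in BWF1 females over males (169), BWF1 females over BALB/c females (295) and BWF1 males over BALB/c females (272), were 108, 152 and 176 with DESeq2. With library size only they were 59 (45 higher, 14 lower), 130 (23 higher, 107 lower) and 274 (26 higher, 248 lower), where TMM gave 74 higher and 95 lower, 138 and 157, and 129 and 143; no filter gave 304 in the first and 510 in the third; only the 2 groups gave 98 in the first; the tag as covariate gave 160 in the second and 153 in the third; Lars2 left out gave 433 and the earlier pipeline 484 in the third. Leaving out a library gave 58 to 198, 184 to 370 and 119 to 393. Library size only shifted the median gene by 0.15, −0.29 and −0.44, and the log2 ratio of summed p200 levels over BALB/c females was −0.32 in BWF1 females and −0.46 in BWF1 males, against −0.05 and −0.04 with TMM.

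Reversals were all of uncalled changes. In BWF1 females over males they were Ifi209 (0.12 library size only, 0.15 without BWF1 female 3) and Aim2 (−0.069 without BWF1 female 2). In BWF1 females over BALB/c females they were Aim2 (−0.16 library size only, −0.30 without BWF1 female 2, −0.032 without BALB/c female 3), Mndal (0.07 with the tag, 0.0041 without BWF1 female 3), Ifi208 (−0.093 library size only, −0.082 without BWF1 female 2 or BALB/c female 2), Ifi214 (0.37 with the tag, 0.050 without BWF1 female 1) and Tagln2 (0.051 without BWF1 female 1, 0.044 without BALB/c female 3). In BWF1 males over BALB/c females they were Aim2 (0.27 with the tag, 0.024 without BWF1 male 3, 0.044 without BALB/c female 2) and Ifngr1 (−0.012 library size only). With a library left out these log2 fold changes ran, in females over males, from −0.069 to 0.62 (Aim2) and −0.23 to 0.15 (Ifi209); in females over BALB/c, from −0.30 to 0.46 (Aim2), −0.32 to 0.0041 (Mndal), −0.082 to 0.49 (Ifi208), −0.70 to 0.050 (Ifi214) and −0.087 to 0.051 (Tagln2); and in males over BALB/c, from −0.44 to 0.044 (Aim2). The causes were not tested. Besides libraries left out, calls of list genes were lost with DESeq2 (Nlrc4, Irf7, and Dnase1l3 and Dnase2a in males), the tag (Nlrc4, Irf7, Samd9l, Dnase1l3 in males), the replicate block (Nlrc4, Irf7, Dnase1l3 in males), library size only (Irf7, Il1b in females over males), and robust dispersion, only the 2 groups or the earlier pipeline (that Il1b call). Ifi202b, Ifi204, Ifi211 and Ifi213 were below the count filter.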
